A study of Mus musculus with 8 samples.

Results

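NRF2 is the transcription factor that turns on antioxidant and detoxification genes, and Nfe2l2 is the gene that encodes it. The 10 genes described here, of 55367 in the count table, are Nfe2l2 itself and 9 genes widely used as readouts of NRF2: Gclc and Gclm, Gsr, Txnrd1, Srxn1, Gstm1, Gstm2, Hmox1 and Nqo1. They were taken from the table by symbol. They were followed in fibroblastic reticular cells (FRCs), the fibroblasts that build the scaffold of the lymph node, by RNA sequencing under 4 conditions with 2 libraries each. The cells labelled vehicle received water, and those of the 15mMLA group, called LA here, received 15 mM lactic acid in the same volume. The cells labelled CCM received control conditioned medium, made by FRCs, and those labelled TCM received medium conditioned by B16.F10 mouse melanoma cells. Exposure lasted 4 days. The control of TCM is CCM and the control of LA is vehicle. All groups share a single FRC line, derived from lymph nodes of C57BL/6 mice of p53 ER/ER genotype and kept in culture, so every library carries that genotype. The study's figure legend calls the 2 libraries of a condition biological replicates. The labels only number them and do not say whether they were separate cultures. The p-values measure only the spread between these libraries.

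Under resting conditions KEAP1 hands NRF2 to a CUL3 ubiquitin ligase, and the protein is destroyed as fast as it is made. Oxidants and electrophiles modify KEAP1, NRF2 builds up, pairs with a small MAF protein and binds antioxidant response elements in its target genes, while BACH1 occupies the same elements as a repressor. Control acts mostly on the protein, so the level of Nfe2l2 RNA is not a measure of NRF2 activity. The targets make and recycle glutathione, keep thioredoxin reduced, conjugate electrophiles and break down heme and quinones.

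Library totals ranged from 8232889 to 14107964 counts, and 3 counts, taken as the floor of detection, corresponded to 0.212 to 0.355 CPM, the count of a gene scaled to the size of its library. Each of the 10 genes lay far above that floor in every library and passed the filter of at least 10 counts in at least 3 libraries, as did 12137 genes in all. Levels are given as CPM scaled by TMM, a factor per library that centres the bulk of genes, and a gene is called where its Benjamini-Hochberg adjusted p from the edgeR quasi-likelihood test is under 0.05 and its log2 fold change (log2 FC) lies beyond 0.39. Of 12 FRC and fibroblast markers 10 exceeded the floor in some library (summed level 19822 to 24577 CPM, mostly from Col1a1 and Col3a1). However, Ccl21a was at 0 in all libraries, Ccl19 had 1 count in a single library, Thy1 had 1 to 16 counts and Il7 had 5 to 26 counts. Col1a2 had 57 to 178 counts. The leukocyte markers Ptprc, Cd3e, Itgam and Itgax were at 0 in all libraries, Cd79a had 0 to 2 counts, and Cd68 had 2 to 22 counts in every library (0.218 to 1.86 CPM, highest in CCM). The 7 melanoma markers summed to 1.82 to 3.67 CPM, mostly from Pmel and Mitf, which were present in every library, and Tyr was at 0. Tyrp1 (6 and 3 counts) and Dct (1 and 1 count) were seen in both TCM libraries and were at 0 in the other 6. The part of these markers in the results was not tested. The 2 TCM libraries differed from each other more than other replicate pairs did (chi-square per degree of freedom over genes 20.1, against 3.28 to 7.33), and their TMM factors, 0.938 and 0.939, were the lowest. Left unscaled by TMM, the difference of TCM from CCM had a median log2 FC of -0.14 over all genes tested, in place of 0.000322, and higher genes then made up 24.2% rather than 46.3% of the calls.

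The 10 genes did not all move in the same direction in any comparison. Between TCM and CCM, Gstm1 rose and Gclc fell, so that 2 of 10 were called. In bulk RNA, fewer cells that express a gene and less of its RNA per cell cannot be told apart. Over all genes tested 19.1% were called (8.83% higher and 10.2% lower), a share close to that of the 10. An unadjusted p under 0.05 was seen for 4 of the 10 and for 4169 of all 12137 genes. Between LA and vehicle only Hmox1 of the 10 was called, and it fell, against 2.55% of all genes (1.31% higher and 1.24% lower). Here 5 of the 10 had an unadjusted p under 0.05, as did 1731 of all 12137 genes. The 2 controls, CCM and vehicle, differed in 0 of the 10 genes by edgeR and in 0 by DESeq2, 1 of the 10 had an unadjusted p under 0.05, and 1.3% of all genes were called.

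The signs of the differences, called or not, were uneven too. Against CCM, 7 of the 10 genes had a log2 FC above 0 in TCM, with a median of 0.13 and a range from -0.77 to 0.54. Without TMM this count was 5 of 10 and the median -0.01, beside the median of -0.14 over all genes. Against vehicle, 8 of the 10 had a log2 FC below 0 in LA, with a median of -0.24, a range from -0.64 to 0.28 and a median over all genes of -0.000345. Against vehicle, 7 of the 10 lay below 0 in CCM as well, with a median of -0.10. The last pair of comparisons uses the same vehicle libraries and is not independent.

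**Figure D1:**
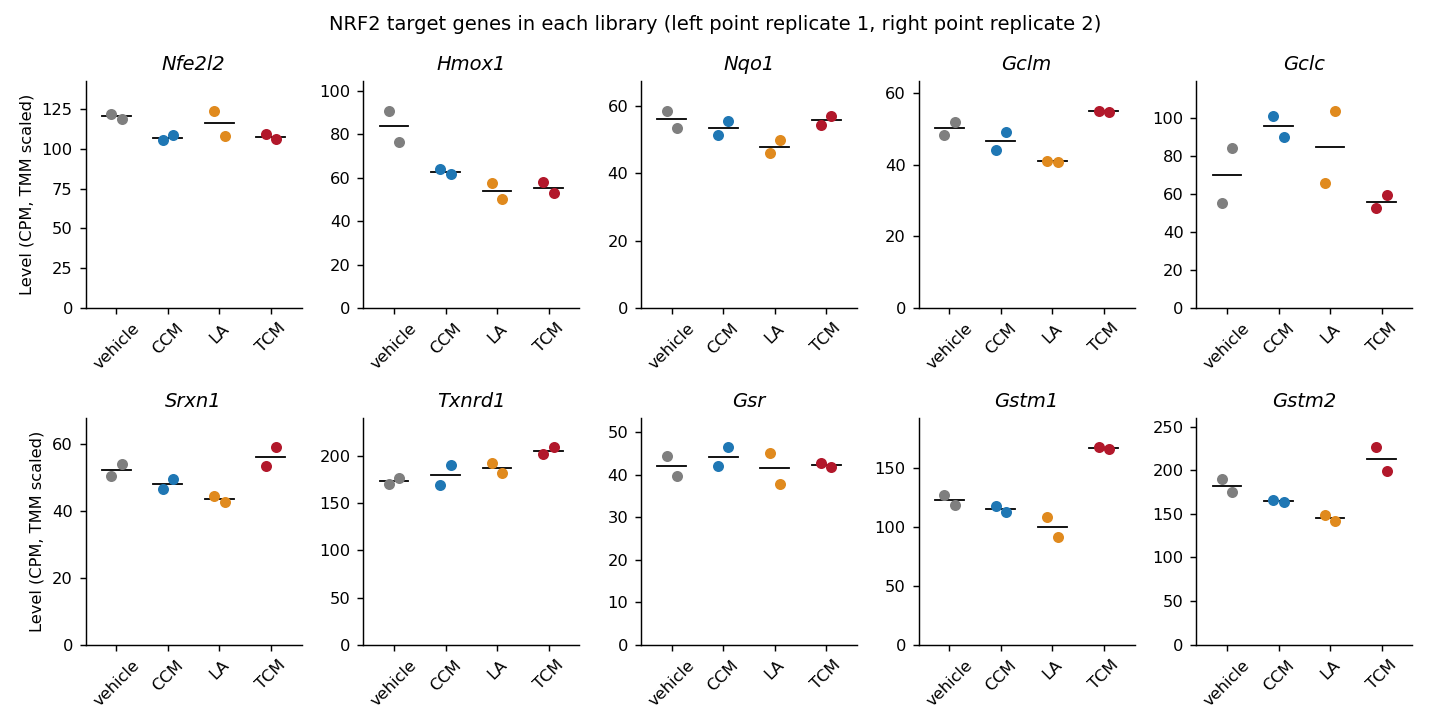
Level of each of the 10 genes in each library, in TMM-scaled CPM on axes that start at 0, with 2 points (replicates 1 and 2) and a line at their mean for vehicle, CCM, LA and TCM. Gstm1 stands at 167 and 166 CPM in TCM and at 127 or less elsewhere, Hmox1 is highest in vehicle, and the replicates of Gclc lie far apart in vehicle and LA.

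Promoters were read from RefSeq windows of GRCm38.p6 that run from 250 bases before to 50 bases after a transcription start, and 7 of the 10 genes had at least 1 window, 10 windows in all. Hmox1, Gclc and Gsr had no entry. Each window was searched on both strands for the core of the antioxidant response element, written here as TGACNNNGC or TGAGNNNGC with N any base, and for TGAGTCA, the AP-1 motif, which overlaps the second core where GC follows it. Windows of 4 genes are printed because the levels of these genes ran most alike over the 8 libraries. For Gstm1 only the first of its 2 windows is given. The cores are in capitals as they stand on the gene's strand:
Srxn1, chr2:152105274-152105573, plus strand: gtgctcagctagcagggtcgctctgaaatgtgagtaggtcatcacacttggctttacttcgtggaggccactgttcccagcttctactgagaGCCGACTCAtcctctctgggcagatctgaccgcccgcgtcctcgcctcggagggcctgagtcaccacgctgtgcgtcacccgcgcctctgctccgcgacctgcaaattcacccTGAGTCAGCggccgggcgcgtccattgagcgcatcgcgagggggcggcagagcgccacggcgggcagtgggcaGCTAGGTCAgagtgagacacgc
Gclm, chr3:122245307-122245606, plus strand: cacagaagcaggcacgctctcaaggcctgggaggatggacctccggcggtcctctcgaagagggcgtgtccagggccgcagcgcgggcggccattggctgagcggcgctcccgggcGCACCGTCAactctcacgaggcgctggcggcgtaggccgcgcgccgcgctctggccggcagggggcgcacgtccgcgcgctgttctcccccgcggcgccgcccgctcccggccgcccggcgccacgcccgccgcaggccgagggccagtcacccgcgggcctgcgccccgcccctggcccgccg
Gstm1, chr3:108017924-108018223, minus strand: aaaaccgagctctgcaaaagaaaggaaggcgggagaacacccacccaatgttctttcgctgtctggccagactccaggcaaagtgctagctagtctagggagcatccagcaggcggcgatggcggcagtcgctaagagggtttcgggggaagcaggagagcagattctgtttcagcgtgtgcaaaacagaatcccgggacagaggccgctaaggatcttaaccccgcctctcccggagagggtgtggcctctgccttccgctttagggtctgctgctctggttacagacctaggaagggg
Gstm2, chr3:107986371-107986670, minus strand: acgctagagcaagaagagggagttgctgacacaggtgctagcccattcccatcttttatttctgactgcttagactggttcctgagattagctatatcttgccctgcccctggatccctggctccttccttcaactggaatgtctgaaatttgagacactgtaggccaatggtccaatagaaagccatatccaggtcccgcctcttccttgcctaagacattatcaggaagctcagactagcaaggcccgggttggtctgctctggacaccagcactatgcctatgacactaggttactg

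The Srxn1 window held 3 cores, at positions -158 to -150, -45 to -37 and 29 to 37 from the start, and 2 AP-1 motifs, of which the one at -45 lies inside a core. The Gclm window held 1 core, read on the opposite strand, at -134 to -126. No core stood in the 300 bases of either Gstm1 window, of Gstm2 or of Nqo1. Nfe2l2 had 1 core at -240 to -232, and Txnrd1 had 1 in the second of its 3 windows at -92 to -84. Either core occurred in 27.79% of 32851 promoter windows, so a match is common. The absence of these letters from a window says nothing of elements further away.

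Positions of genes are those of GENCODE M21 on GRCm38. Nfe2l2 (chr2:75675513-75704641, minus strand) showed no difference that passed the test. Its level was 122 and 119 CPM in the vehicle libraries, 105 and 108 in CCM, 124 and 108 in LA, and 109 and 106 in TCM. The TCM and CCM ranges overlapped, as did the LA and vehicle ranges. Between TCM and CCM the log2 FC was 0.01 (95% interval -0.20 to 0.22, adjusted p = 0.956), and between LA and vehicle it was -0.06 (-0.27 to 0.15, adjusted p = 0.866). The sign of the first value was negative without TMM, and that of the second changed in at least 1 of the refits without a library (range -0.16 to 0.04). Among the 4 condition means no neighbour pair differed by the test.

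Glutathione synthesis starts with glutamate-cysteine ligase, whose catalytic subunit is encoded by Gclc (chr9:77754535-77794485, plus strand) and whose modifier subunit is encoded by Gclm (chr3:122245557-122270732, plus strand). Their mean levels in TCM lay on opposite sides of CCM. Gclc was at 101 and 89.9 CPM in CCM and at 52.4 and 59.5 CPM in TCM, so both TCM libraries lay below both CCM libraries. Gclc fell to 0.585-fold (95% interval 0.42 to 0.817) in TCM, a log2 FC of -0.77 ± 0.22 (SE, 2 libraries per group, edgeR adjusted p = 0.0276). The call was lost without CCM 1 (log2 FC -0.68, adjusted p = 0.148), CCM 2 (-0.85, 0.066), TCM 1 (-0.68, 0.339) or TCM 2 (-0.87, 0.223), while the sign stayed negative in all 8 such refits.

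Gclc had the widest gap between replicates of the 10 genes, 1.58-fold in LA. Its level was 55.4 and 84.2 CPM in vehicle and 65.7 and 104 CPM in LA, with the lower value in replicate 1 both times. A gap between replicates of that size was exceeded by 3.86% of all genes in vehicle and by 3.36% in LA. The log2 FC of LA against vehicle was 0.28 with an interval from -0.19 to 0.76 (adjusted p = 0.638), and it ranged from -0.09 to 0.62 when a library was left out. In CCM against vehicle Gclc had a log2 FC of 0.45 (-0.02 to 0.92, adjusted p = 0.421), with both CCM libraries above both vehicle libraries. TCM against vehicle gave -0.32 (-0.81 to 0.16, edgeR adjusted p = 0.345), which was not called, and the libraries of TCM and vehicle overlapped.

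Gclm, the modifier, was at 48.4 and 52.0 CPM in vehicle, 44.1 and 49.1 in CCM, 40.9 and 40.9 in LA, and 55.1 and 54.8 in TCM. The TCM libraries were the highest of all 8 and the LA libraries the lowest. Neither difference alone was called: the log2 FC was 0.24 in TCM against CCM (95% interval 0.01 to 0.46, adjusted p = 0.125) and -0.30 in LA against vehicle (-0.52 to -0.07, adjusted p = 0.201). Per kilobase of exon Gclm had the lowest level of the 10 genes in each condition, 6.50 to 8.74 CPM per kb. A share of 4.58% of its 50-base stretches recurs in other genes, and Gm6061 overlaps it on the same strand and Gm17494 on the opposite one, with the strand setting of the counting not given in the sources used here.

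Gsr (chr8:33652523-33698163, plus strand), glutathione reductase, turns oxidised glutathione back into its reduced form. It was the flattest of the 10, at 44.5 and 39.8 CPM in vehicle, 42.1 and 46.5 in CCM, 45.2 and 37.9 in LA, and 42.8 and 41.9 in TCM. The highest and the lowest condition mean differed 1.07-fold, less than the 2 LA libraries differed from each other (1.19-fold). Its log2 FC was -0.06 in TCM against CCM (95% interval -0.33 to 0.20, adjusted p = 0.752) and -0.03 in LA against vehicle (-0.29 to 0.24, adjusted p = 0.961). All 4 conditions overlapped.

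Txnrd1 (chr10:82833951-82897712, plus strand), the cytosolic thioredoxin reductase, passes electrons from NADPH to thioredoxin. It stood at 170 and 177 CPM in vehicle, 169 and 191 in CCM, 192 and 183 in LA, and 202 and 209 in TCM. Both TCM libraries lay above the other 6, yet the log2 FC against CCM was 0.20 with an interval from -0.01 to 0.40 (adjusted p = 0.167), and it ranged from 0.06 to 0.28 over the 19 alternative settings. LA against vehicle gave 0.11 (-0.10 to 0.32, adjusted p = 0.692). Apart from Gclc it was the one gene of the 10 with a positive log2 FC in LA. Eid3 overlaps it on the same strand and Gm38560 and Gm47073 on the opposite strand.

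Srxn1 (chr2:152105516-152111376, plus strand) encodes sulfiredoxin, which repairs peroxiredoxins that have been over-oxidised, and its window carried the most cores. It was at 50.5 and 54.2 CPM in vehicle, 46.6 and 49.6 in CCM, 44.5 and 42.7 in LA, and 53.5 and 59.0 in TCM. The order of the condition means was TCM, vehicle, CCM and LA, the same order as for Gclm, and no neighbours in it differed by the test. The log2 FC was 0.23 in TCM against CCM (95% interval -0.000173 to 0.46, adjusted p = 0.146) and -0.27 in LA against vehicle (-0.50 to -0.04, adjusted p = 0.266). Both intervals reach past the threshold of 0.39.

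The mu-class glutathione transferases Gstm1 (chr3:108012255-108017973, minus strand) and Gstm2 (chr3:107981702-107986453, minus strand) join glutathione to electrophiles, and Gstm1 had the smallest adjusted p of the 10 in TCM against CCM. Gstm1 was at 127 and 118 CPM in vehicle, 117 and 113 in CCM, 108 and 91.4 in LA, and 167 and 166 in TCM. Gstm1 rose 1.45-fold (95% interval 1.24 to 1.69) in TCM against CCM, a log2 FC of 0.54 ± 0.10 (SE, 2 libraries per group, edgeR adjusted p = 0.00358). The call held in all 8 refits that left out a library (adjusted p 0.00144 to 0.0471) and without TMM, and it was lost where a log2 FC beyond 0.68 was asked for. A larger absolute log2 FC than that of Gstm1 was seen in 20.5% of all genes. In LA the log2 FC of Gstm1 was -0.30 against vehicle (-0.53 to -0.08, adjusted p = 0.183), with both LA libraries below both vehicle libraries.

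Gstm2 had the same order of condition means, TCM, vehicle, CCM and LA. Its level was 190 and 175 CPM in vehicle, 166 and 163 in CCM, 149 and 142 in LA, and 226 and 199 in TCM. The adjusted p of TCM against CCM was 0.0198, but the log2 FC of 0.37 ± 0.10 (SE, 1.29-fold, 95% interval 1.11 to 1.5) stopped just short of the fold threshold, so Gstm2 was not called. Without TCM 2 it was called (log2 FC 0.46, adjusted p = 0.00161). In LA the log2 FC was -0.32 (-0.54 to -0.11, adjusted p = 0.123). Gstm2 is among the genes that the study displayed from these libraries. Per kilobase of exon these were the most abundant of the 10 genes in every condition, with 86.7 to 127 CPM per kb for Gstm2 and 67.8 to 113 for Gstm1. The genes share part of their sequence: 18.9% of the 50-base stretches of Gstm1 occur in Gstm2, Gstm3 or other annotated genes, and 5.65% of those of Gstm2 occur elsewhere. The split of reads that fall in such stretches is uncertain.

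Hmox1 (chr8:75093621-75100589, plus strand) encodes the inducible heme oxygenase, which breaks heme down to biliverdin, iron and carbon monoxide. The vehicle libraries, at 90.9 and 76.6 CPM, were the highest of the 8, followed by CCM at 63.9 and 61.8, TCM at 58.1 and 52.8, and LA at 57.5 and 50.01. In LA Hmox1 fell to 0.64-fold of vehicle (95% interval 0.535 to 0.766), a log2 FC of -0.64 ± 0.12 (SE, 2 libraries per group, edgeR adjusted p = 0.0193). The call was lost without vehicle 1 (log2 FC -0.52, adjusted p = 0.181), vehicle 2 (-0.76, 0.053), LA 1 (-0.74, 0.0669) or LA 2 (-0.54, 0.165), with a negative sign each time.

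Hmox1 also stood below vehicle in both libraries of each conditioned medium. CCM against vehicle gave a log2 FC of -0.41 (95% interval -0.67 to -0.16, adjusted p = 0.124), which was not called, although it was called when those 4 libraries were fitted alone (adjusted p = 0.00393) and without TCM 1 (0.0275) or TCM 2 (0.0269). TCM against vehicle was called, at -0.59 ± 0.12 (SE, adjusted p = 0.00547, where 17.5% of all genes were called), while TCM against its own control CCM gave -0.18 (-0.44 to 0.08, adjusted p = 0.311). These 3 differences from vehicle rest on the same 2 vehicle libraries, so they are not independent of each other.

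Nqo1 (chr8:107388225-107403206, minus strand) encodes the quinone reductase that is the classical readout of NRF2. It was at 58.6 and 53.5 CPM in vehicle, 51.5 and 55.4 in CCM, 46.0 and 49.8 in LA, and 54.5 and 57.0 in TCM. Both LA libraries were below the other 6, and the other conditions overlapped. The log2 FC was -0.22 in LA against vehicle (95% interval -0.45 to 0.01, adjusted p = 0.368) and 0.06 in TCM against CCM (-0.17 to 0.29, adjusted p = 0.728), the latter turning negative without TMM.

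**Figure D2:**
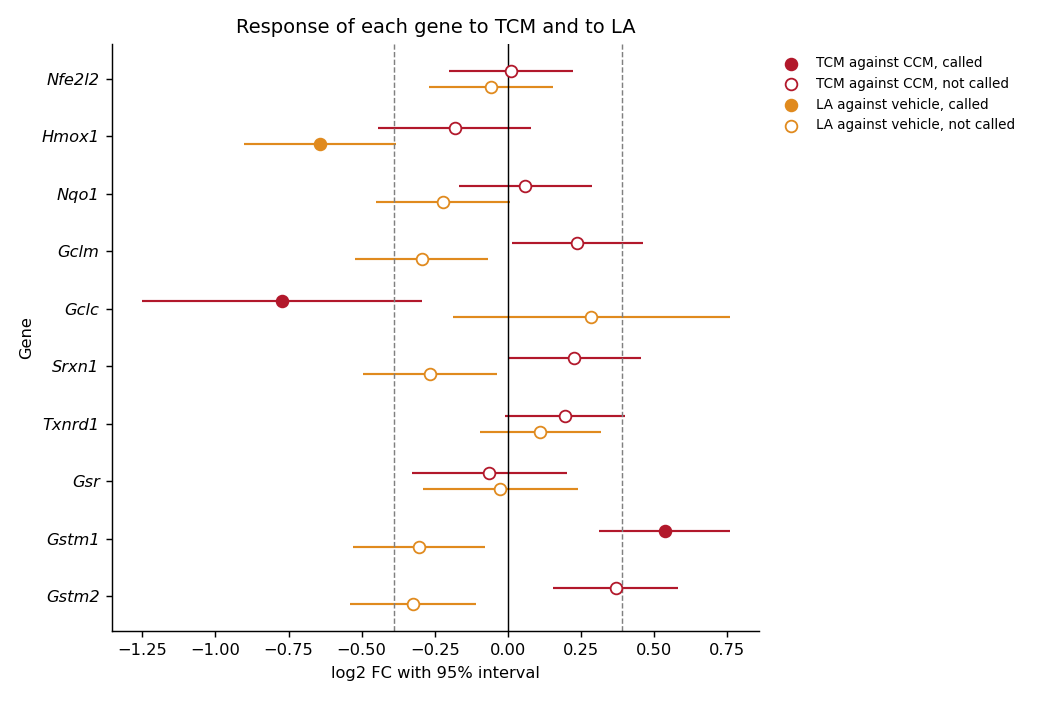
log2 FC of each gene with its 95% interval for TCM against CCM and for LA against vehicle, filled where called, with dashed lines at 0.39 on either side of 0. Gstm1 (0.54) and Gclc (-0.77) are called for TCM and Hmox1 (-0.64) for LA, and Gclm, Srxn1, Gstm1 and Gstm2 have positive values for TCM beside negative ones for LA.

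Whether TCM and LA acted differently was tested as the difference between both effects, TCM minus CCM less LA minus vehicle, in the same fit. It was called for 3 of the 10 genes, against 10.4% of all genes. The value was above 0 for 8 of the 10, with a median of 0.37, beside 0.00538 over all genes. An unadjusted p under 0.05 was seen for 6 of the 10 and for 2940 of all 12137 genes. For Gstm1 the TCM effect exceeded the LA effect by 0.84 ± 0.14 (log2, SE, adjusted p = 0.00356), for Gstm2 by 0.69 ± 0.14 (adjusted p = 0.00822) and for Gclm by 0.53 ± 0.15 (adjusted p = 0.0399). The Gstm1 call held in all 8 refits without a library. That of Gstm2 was lost without vehicle 1 (0.63, adjusted p = 0.0517) or CCM 2 (0.68, 0.051). That of Gclm was lost by DESeq2 (adjusted p = 0.0787), without TMM (0.119) and without either library of vehicle, CCM or LA (adjusted p 0.0808 to 0.212).

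Srxn1 and Gclc lay just outside that call. The difference was 0.49 ± 0.15 for Srxn1 (adjusted p = 0.0563) and -1.06 ± 0.31 for Gclc (adjusted p = 0.0512). Gclc was called by DESeq2 (-1.04, adjusted p = 0.00761), without TMM (-1.20, 0.0216), without vehicle 2 (-1.39, 0.0268) without LA 1 (-1.34, 0.0143) and without the filter on low counts (-1.06, 2.56e-05), and Srxn1 without TCM 1 (0.56, 0.0134) or TCM 2 (0.42, 0.0426). Hmox1 reached 0.46 ± 0.17 (adjusted p = 0.112) and was called without TCM 2 (0.53, 0.0291). Nfe2l2, Nqo1, Txnrd1 and Gsr had differences between -0.04 and 0.28 that were not called.

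Levels were also compared between the 10 genes over the 8 libraries, which share 4 conditions and a TMM scaling, so these correlations are descriptions only. Gclm, Srxn1, Gstm1 and Gstm2 all ran alike (Pearson r of log2 CPM 0.816 to 0.956), most of all Gclm with Srxn1 (0.956) and Gstm1 with Gstm2 (0.948), and Nqo1 followed them at 0.591 to 0.77. Gclc had a negative r with each of the other 9 genes, down to -0.758 with Gstm1. The highest r of Gsr with any of them was 0.285. Over all genes tested, those most like Gstm1 were Creg1 (r = 0.992), Slc40a1 (0.985), Aldh2 (0.981), Ptk2b (0.979) and Podn (0.979). Creg1, for example, averaged 26.4 CPM in vehicle, 25.2 in CCM, 19.5 in LA and 44.2 in TCM.

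Other genes of the pathway were followed in 8 lists of 92 genes, of which 81 passed the filter. In TCM against CCM 18 of the 81 rose and 7 fell, a median log2 FC of 0.17, where 8.83% of all genes rose and 10.2% fell. The counts were 14 without TCM 1 (9 rose, 5 fell, with 18.9% of all genes called) and 38 without TCM 2 (30 rose, 8 fell, 23.6%), 13 without CCM 1 (9.85%) and 11 without CCM 2 (10.6%), and without TMM 10 rose and 11 fell. In LA against vehicle 1 of the 81 rose and 3 fell (median -0.09), where 1.31% of all genes rose and 1.24% fell. The counts of the single lists stand beside these same shares and carry no test of the list. In LA 2 listed genes rose and 3 fell by DESeq2, without the filter on low counts and with only the libraries compared. Of all genes 2.69%, 2.82% and 3.74% were called in these settings. In LA no listed gene was called once any of the vehicle or LA libraries was left out, nor more than 1 without a CCM library.

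**Figure D3:**
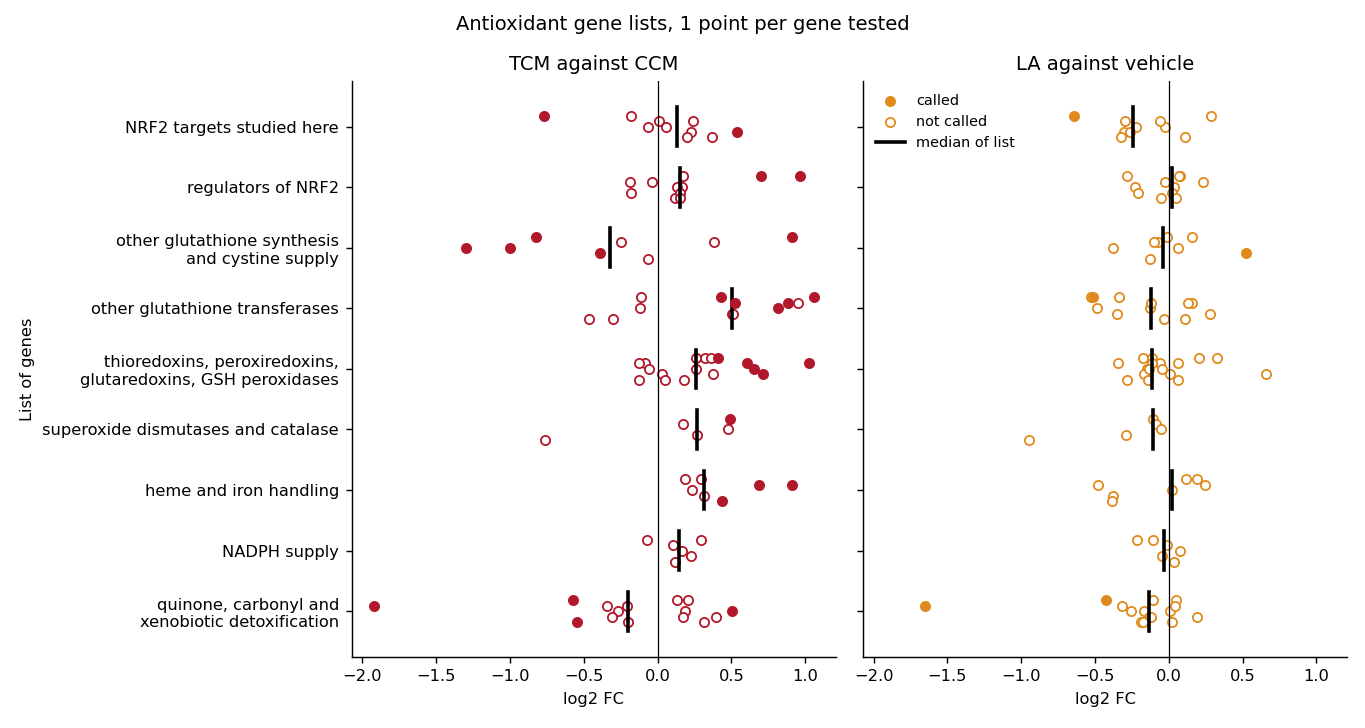
log2 FC of each tested gene in the 8 lists and of the 10 NRF2 targets, for TCM against CCM (left) and LA against vehicle (right), with 1 point per gene, filled where called, and a bar at the median of each list. The list medians for TCM reach from -0.32 for glutathione synthesis and cystine supply to 0.50 for the other glutathione transferases, and those of the 8 lists for LA stay between -0.13 and 0.02.

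Among the regulators of NRF2, 2 of 11 tested genes rose in TCM and none fell, a share close to the 19.1% of all genes called, and 0 of 11 were called in LA by edgeR (2 at an unadjusted p under 0.05). Maff, a small MAF partner of NRF2, rose 1.95-fold (log2 FC 0.96 ± 0.13, SE, adjusted p = 0.000533), from 25.6 and 27.6 CPM in CCM to 56.5 and 47.4 in TCM. Bach1, the repressor at the same elements, rose 1.63-fold (0.70 ± 0.13, adjusted p = 0.00362), from 71.3 and 67.1 CPM to 97.3 and 127.9. Both calls held in all 8 refits without a library. Cul3 had a log2 FC of -0.18 (adjusted p = 0.195), and Sqstm1, a KEAP1-binding autophagy adaptor, had 0.17 in TCM (0.298) and -0.28 in LA (0.249).

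Of 8 genes of glutathione synthesis and cystine supply beside Gclc and Gclm, 4 were called lower and 1 higher in TCM, with a median log2 FC of -0.32, where 10.2% of all genes were called lower. Of the 4, only Slc7a11 kept its call in every refit without a library. Slc7a11, the cystine carrier that feeds glutathione synthesis, fell from 39.05 and 34.98 CPM in CCM to 14.65 and 22.48 in TCM (log2 FC -0.999 ± 0.17, SE, adjusted p = 0.00203), in all 8 refits. Chac1, which degrades glutathione, fell by 0.82 (adjusted p = 0.0237) and Ggt5, a gamma-glutamyl transferase at 3.61 CPM or less in all libraries, by 1.30 (0.0245). Ggt7 fell by 0.39 in TCM (0.03) and rose by 0.52 in LA (0.0332). The calls of Chac1 were lost without either CCM or TCM library (adjusted p 0.0628 to 0.233), those of Ggt5 without CCM 1, CCM 2 or TCM 1 (0.0671 to 0.121), and those of Ggt7 without either vehicle, either CCM or TCM 1 (0.051 to 0.239) for TCM, and without either vehicle, CCM or LA library (0.0661 to 0.28) for LA. The TCM calls of Ggt5 and Ggt7 were also lost by DESeq2, and that of Ggt7 with DESeq2 size factors, without the filter on low counts and with only the libraries compared. Slc7a11 is known to supply glutathione synthesis, whereas Chac1 and the transferase Ggt5 are known to break glutathione down.

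Of the other glutathione transferases 5 of 12 tested rose in TCM and none fell, with a median log2 FC of 0.50, where 8.83% of all genes rose. In LA 1 of 12 fell, where 1.24% of all genes fell. Gsta4, which handles lipid peroxidation products, rose by 1.06 (adjusted p = 0.00631) and Gstk1, a mitochondrial and peroxisomal transferase, by 0.88 (0.00962). The membrane-bound Mgst1 rose by 0.43 (0.0236) and Gstp1 by 0.53 (0.028). Gstp1 was at 147 CPM in TCM 1 and 99.3 in TCM 2, beside 87.3 and 83.6 in CCM. The calls were lost without CCM 1 for Gsta4 (1.05, 0.0531), without CCM 2 or TCM 1 for Gstk1 (0.0509 to 0.0833), and without either CCM library or TCM 1 for Mgst1 (0.0655 to 0.185) and Gstp1 (0.105 to 0.145). Mgst1 and Gstp1 were not called without TMM or with only the libraries compared.

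The enzymes that reduce peroxides and disulfides, 17 tested, had 5 rises and no fall in TCM (median log2 FC 0.26). In LA none was called in the edgeR fit with the filter and all 8 libraries (3 at an unadjusted p under 0.05). In LA 11 of the 17 had a log2 FC below 0. The largest value there was 0.66 for Txn1, thioredoxin, at 356 and 371 CPM in vehicle and 558 and 588 in LA, which was not called in that fit. Txn1 was at 378 and 391 CPM in CCM and at 781 and 483 in TCM. Prdx5, a peroxiredoxin of mitochondria and peroxisomes, rose 2.03-fold (log2 FC 1.02 ± 0.16, SE, adjusted p = 0.00104), with 524 CPM in TCM 1 and 358 in TCM 2 against 202 and 232 in CCM. Prdx6 rose by 0.65 (0.00158) and Txnrd3, a relative of Txnrd1, by 0.60 (0.00343). These 3 calls held in all 8 refits. Glrx, a glutaredoxin, rose by 0.41 (0.0133), and its call was lost without either CCM library or TCM 1 (log2 FC 0.32 to 0.44), without TMM and with only the libraries compared.

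Catalase, Cat, was the 1 of 5 superoxide dismutase and catalase genes that rose in TCM (0.49, adjusted p = 0.00686). Its call was lost without CCM 2 or TCM 2 (log2 FC 0.39 to 0.43) and without TMM. Sod1 had a log2 FC of 0.48 (0.0634) that was called only without TCM 2 among the refits without a library (0.76, 4.54e-05), with 334 CPM in TCM 1 and 214 in TCM 2, and that was also called by DESeq2 and without the filter. None of the 5 was called in LA, where 2 had an unadjusted p under 0.05 and the values ran from -0.94 for Sod3 (0.152) to -0.05 for Sod1.

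In heme and iron handling, where Hmox1 acts, 3 of 7 genes rose in TCM and all 7 had values above 0 (0.18 to 0.91). Slc40a1, the iron exporter ferroportin, rose by 0.91 ± 0.18 (SE, adjusted p = 0.00437), from 8.86 and 8.12 CPM to 16.3 and 15.6, in all 8 refits. Blvrb, a biliverdin reductase, rose by 0.69 (0.00654), and was not called without CCM 2. Ftl1, the ferritin light chain, rose by 0.44 (0.0162), and was not called without either CCM library, TCM 1 or TMM, or with only the libraries compared. In LA none of the 7 was called, and 3 had an unadjusted p under 0.05, with Slc40a1 at -0.48 (0.266) and Ftl1 at -0.38 (0.106).

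NADPH supply showed no call among 6 genes in either comparison by edgeR (2 in TCM and 1 in LA at an unadjusted p under 0.05). Tkt, transketolase, had an adjusted p of 0.0397 in TCM with a log2 FC of 0.29, under the fold threshold. Of 15 genes of quinone, carbonyl and xenobiotic detoxification, the list closest to Nqo1, 1 rose and 3 fell in TCM, and 2 fell in LA. Ephx1, microsomal epoxide hydrolase, fell from 276 and 277 CPM in CCM to 186 and 186 in TCM (log2 FC -0.57 ± 0.09, SE, adjusted p = 0.000857, in all 8 refits) and from 320 and 329 CPM in vehicle to 245 and 237 in LA (-0.43 ± 0.09, 0.0273). Ces2g, a carboxylesterase, fell by 0.55 in TCM (0.0036, in all 8 refits).

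Aldh3a1, an aldehyde dehydrogenase, fell by 1.92 in TCM (adjusted p = 0.0117) and by 1.65 in LA (0.0312), with 3 to 52 counts in any library. TCM 2 lay at the floor of 3 counts, so the fitted fold is imprecise, and it was -3.09 without TCM 1 and -1.30 without TCM 2. The TCM call of Aldh3a1 was lost without CCM 2 (-1.59, 0.0858) and with only the libraries compared (0.0502), and its LA call without either vehicle or LA library (0.14 to 0.202). The LA call of Ephx1 was lost without either vehicle, CCM or LA library (0.0755 to 0.219).

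**Figure D4:**
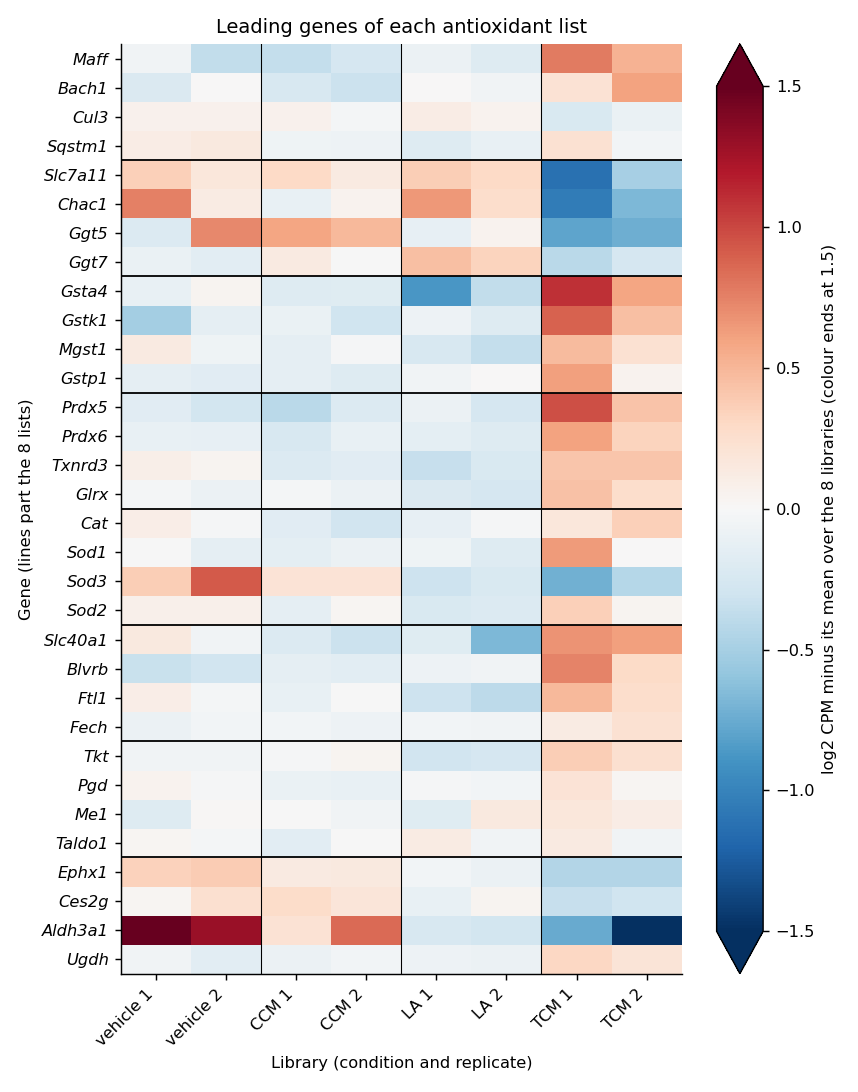
log2 CPM of the 4 genes of each list with the smallest adjusted p, minus the mean of the gene over the 8 libraries, with libraries as columns and lines between lists. Both TCM columns stand apart from the other 6 for genes such as Maff, Slc7a11 and Slc40a1, and TCM 1 is further from the rest than TCM 2 for Prdx5 (524 against 358 CPM) and Sod1 (334 against 214 CPM).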

How the data were processed

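Per the labels and the study's methods, RNA of the 8 libraries was sequenced, aligned to GRCm38 with STAR 2.7.0a and counted per gene with featureCounts (Subread 2.0.1), and the study then used DESeq2 1.32.0. The deposited files hold counts of reads per gene, not normalized by the authors. A second deposited table holds the same counts for the 12137 genes that pass a filter of 10 counts in 3 libraries (100% of its values equal), and only the full table was used. No column of per-sample values was left unused (0). Strand setting of the counting is not given in the sources used here.

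Genes that reached 10 counts in 3 or more libraries were fitted with edgeR 4.0.16 in R 4.3.3 (TMM, quasi-likelihood, robust, 1 mean per condition, all 8 libraries together), with p-values adjusted by Benjamini-Hochberg over all genes tested. Calls needed an adjusted p under 0.05 together with a log2 FC beyond 0.39. SE is the log2 FC divided by the square root of F, and intervals are 95% intervals of the fit. The biological coefficient of variation was 0.0903. The code was tested on simulated counts. Alternatives were other scaling, filters and thresholds, DESeq2 1.42.0, a replicate block and leaving out each library. With 2 libraries against 2, an exact permutation test of a single gene could not reach significance, so none was run.

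The 10 genes and the 8 lists were chosen with earlier results of these data known. All 10 were named, up to 4 genes of each list with the smallest adjusted p over TCM against CCM and LA against vehicle, and the 5 genes most correlated with the one of the 10 with the smallest adjusted p in TCM against CCM. Txn1 was named in addition, for the largest log2 FC in LA among the listed genes. Counts and intervals cover counting and replicate error of these libraries only. Shared 50-base stretches were counted between GENCODE M21 transcripts, and promoters came from RefSeq.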

Additional observations from a re-analysis of the deposited data

Results flagged for a closer look

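The effect of TCM (against CCM) and the effect of LA (against vehicle) were compared in 1 fit, and the difference itself was tested for the 10 NRF2 targets and the genes named from the lists. It passed the test for 16 of them. Apart from Txn1, the listed genes were named for small adjusted p-values in the same contrasts, so this count is fixed in part by that choice and supports nothing. Over all 81 listed genes tested 14 passed (12 with a positive and 2 with a negative value), where 10.4% of all genes passed. A positive value says that the TCM effect was higher than the LA effect on the log2 scale.

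Of the 10 NRF2 targets the difference was 0.84 for Gstm1, 0.69 for Gstm2 and 0.53 for Gclm. Only that of Gstm1 was called in all 8 refits that left out a library. The call of Gstm2 was lost in 2 of these refits and that of Gclm in 6.

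Among peroxide and disulfide enzymes the difference was 0.96 for Prdx5, 0.95 for Txnrd3, 0.70 for Prdx6, 0.59 for Glrx and 0.60 for Cat. In heme and iron handling it was 1.39 for Slc40a1, the iron exporter, and 0.82 for Ftl1. It was 1.59 for Gsta4 and 0.77 for Mgst1, both transferases, 0.89 for Maff and 0.51 for Tkt. The cystine carrier Slc7a11 (-1.06) and Ggt7 (-0.91) had negative differences. Ggt7, Txnrd3 and Slc40a1 were called in all 8 refits without a library. Gsta4 was lost without vehicle 2 (1.51, edgeR adjusted p = 0.0551) and Ftl1 without CCM 1 (0.77, 0.0534). Slc7a11 was lost without vehicle 2 or CCM 1 (adjusted p 0.0712 to 0.0751). Maff (0.0664 to 0.072), Mgst1 (0.0705 to 0.0808) and Prdx5 (0.0786 to 0.0918) were lost without vehicle 1, CCM 1 or LA 2. Prdx6 was lost without either vehicle library, CCM 1 or LA 2 (0.0528 to 0.089), and Glrx, Cat and Tkt without either vehicle, CCM or LA library (0.0564 to 0.153).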

How the results depend on the processing

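No difference of the 10 genes that was called in any setting turned its direction, and of 750 refitted differences 704 kept their side of the threshold, 27 lost a call and 19 gained one. The count of the 10 genes called in TCM against CCM was 1 at a log2 FC beyond 0.68 and 0 beyond 1, and 1 to 2 when a library was left out. In LA against vehicle it was 0 at either threshold and 0 to 1 without a library. In CCM against vehicle it was 1 without the filter on low counts and with only the libraries compared, and 0 to 1 without a library. For the TCM effect minus the LA effect it was 0 beyond 1 and 1 to 5 without a library. A fit restricted to the libraries compared was not run for that difference, which uses all 8. With a single library left in a group, that library was assumed to vary like the others.

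Replicate numbers are not tied to anything in the labels. Deviations of same-numbered libraries correlated by -0.242 (CCM and TCM) to 0.353 (vehicle and LA). With the replicate block the counts of the 10 genes called were 2 in TCM, 1 in LA, 0 in CCM and 4 for the difference of effects, where Gclc was added. The crossed replicate block, chosen after seeing the data, gave 2, 1, 1 and 6.

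Over all genes the counts moved by more than 1.5 times as follows. TCM against CCM, 2314 in the main fit, gave 1331 beyond 0.68, 760 beyond 1 and 1195 and 1284 without CCM 1 or CCM 2. LA against vehicle, 310, gave 656 without the filter, 176 and 86 at the higher thresholds, 57 to 81 without a vehicle or LA library, 184 and 186 without a CCM library and 617 without either TCM library. CCM against vehicle, 158, gave 584 without the filter, 679 with only the libraries compared, 84 and 19 at the higher thresholds, 0 to 5 without a vehicle or CCM library and 494 and 497 without a TCM library. The difference of effects, 1268, gave 634 beyond 1 and 629 to 2540 without a library, and higher genes were 23.2% of its calls without TMM beside 42.6%. The crossed replicate block gave 596, 457 and 1938 for the last 3 comparisons. The causes were not tested.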
